A study of Homo sapiens with 12 samples.

Results

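The N-glycan genes described here are 36 genes that build the sugar tree for asparagine-linked glycosylation, attach it to proteins and trim it. They were chosen by name, by their known place in the pathway, but with earlier results of these data known. Their shares below are therefore a description and no set was tested. All 36 were present among the 57736 genes of the count tables. Of these, 7 supply dolichol and its sugars, 12 assemble the lipid-linked oligosaccharide, 9 belong to the oligosaccharyltransferase and 8 trim or first remodel the transferred glycan. RNA came from 2 human cancer cell lines of wild-type genotype. HepG2 is a liver cancer line and Ls174 is an intestinal cancer line that makes mucus. Each line was cultured for 24 hours without treatment (control) or with an extract of the red seaweed Hypnea musciformis (HME), in 3 biological replicates per group. The labels give 0.7 mg/ml of HME, while the study's methods give another concentration. The controls are labelled as untreated, and with 1 line per tissue, tissue and line cannot be told apart.

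N-glycosylation begins in the membrane of the endoplasmic reticulum, where sugars are added stepwise to the lipid carrier dolichol. The oligosaccharyltransferase then moves the finished tree as a block onto asparagine residues of nascent proteins, and glucosidases and mannosidases cut it back. The state of trimming is read by the lectins calnexin and calreticulin, which hold unfolded glycoproteins, so the pathway is tied to folding and disposal. Hepatocytes secrete glycosylated plasma proteins and colonic goblet cells secrete mucins, which are glycoproteins too.

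The libraries hold tags from the 3′ ends of transcripts, 1790841 to 3656662 counts per library, and the 36 genes took between 0.140% and 0.225% of them. Values below are CPM, the count of a gene relative to the library total after TMM scaling within each line. The 2 lines were scaled separately, so levels of members are compared between lines only where a fit of all 12 libraries is named. The marker sums below are set side by side on these within-line scales. A change is called when the adjusted p of edgeR's quasi-likelihood test is below 0.05. Counts at the looser limits of the study, an unadjusted p below 0.05 with a log2 fold change beyond 0.58, are given beside these calls and are named the study thresholds. The study set these limits on a binomial test and here they are set on the edgeR test, so the genes called are not the study's own. In HepG2 35 members entered the test and ALG6 was too low. In Ls174 34 members entered it, while ALG11 and TUSC3 were too low. Liver markers were found above 3 counts in every HepG2 library for 8 of 8 genes, and their summed level in Ls174 was at most 137 CPM against at least 12041 CPM in HepG2. In Ls174 this sum was 137 CPM in control 3, 62.6 CPM in HME 1 and at most 10.3 CPM in the other libraries. Colon markers were above 3 counts in every library for 6 of 8 genes in Ls174 controls and for 7 of 8 in treated Ls174 cells, while in HepG2 2 of 8 were above 3 counts in every library and CEACAM5, MUC2 and GPA33 were at 0 in the controls. The summed liver markers were 17083 to 19224 CPM in HepG2 controls and 12041 to 13064 CPM with HME, and the summed colon markers 366 to 456 CPM in Ls174 controls and 325 to 357 CPM with HME, against 56.3 to 173 CPM in HepG2 controls and 93.3 to 120 CPM in treated HepG2 cells. Their part in the results below was not tested. In bulk RNA, fewer cells and less RNA per cell cannot be told apart.

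In each line 1 control library stood apart. The chi-square per degree of freedom between HepG2 control 2 and the other controls was 54.1 and 49.1, against 13.6 between those. In Ls174 it was 34.5 and 37.0 with control 1 and 5.68 without. In HepG2 HME 2 the 6 fibroblast and mesenchymal marker genes summed to 890 CPM, against at most 11.2 CPM in the other 11 libraries. Of the 6 genes, 1 was above 3 counts in every treated HepG2 library, and DCN was at 0 in that group. The sum is not split by gene here, so it may rest on few of them.

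Several members that were lower in treated Ls174 cells can be set beside their promoter sequences, to show what these regions share. The stretches are the 250 bases before the RefSeq transcription start on GRCh38.p14, written 5′ to 3′ along the gene. Capitals mark the CCAAT box in either orientation (CCAAT or ATTGG) and, in ALG12, the ER stress response element (ERSE), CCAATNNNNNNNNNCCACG, which contains a CCAAT box.
ALG12, chr22:49918439-49918688, minus strand: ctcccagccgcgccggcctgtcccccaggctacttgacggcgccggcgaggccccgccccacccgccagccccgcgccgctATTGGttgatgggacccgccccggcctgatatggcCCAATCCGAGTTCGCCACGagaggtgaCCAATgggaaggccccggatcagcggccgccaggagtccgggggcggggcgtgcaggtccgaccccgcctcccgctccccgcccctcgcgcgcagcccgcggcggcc
GANAB, chr11:62646614-62646863, minus strand: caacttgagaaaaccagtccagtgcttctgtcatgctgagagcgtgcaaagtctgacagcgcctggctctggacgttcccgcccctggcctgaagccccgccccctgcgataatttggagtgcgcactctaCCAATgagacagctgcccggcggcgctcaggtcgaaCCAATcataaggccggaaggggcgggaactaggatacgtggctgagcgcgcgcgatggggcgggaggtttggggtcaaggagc
STT3A, chr11:125592602-125592851, plus strand: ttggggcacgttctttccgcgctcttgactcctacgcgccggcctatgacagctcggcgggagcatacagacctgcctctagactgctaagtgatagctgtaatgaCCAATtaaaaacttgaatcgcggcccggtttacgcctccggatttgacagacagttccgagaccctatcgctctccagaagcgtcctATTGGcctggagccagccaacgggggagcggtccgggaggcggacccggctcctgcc
RPN2, chr20:37179080-37179329, plus strand: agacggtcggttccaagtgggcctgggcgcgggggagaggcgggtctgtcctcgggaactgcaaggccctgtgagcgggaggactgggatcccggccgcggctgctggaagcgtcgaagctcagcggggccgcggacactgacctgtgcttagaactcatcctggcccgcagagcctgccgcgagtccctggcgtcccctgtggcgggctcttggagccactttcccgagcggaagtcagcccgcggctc
MAN2A1, chr5:109689677-109689926, plus strand: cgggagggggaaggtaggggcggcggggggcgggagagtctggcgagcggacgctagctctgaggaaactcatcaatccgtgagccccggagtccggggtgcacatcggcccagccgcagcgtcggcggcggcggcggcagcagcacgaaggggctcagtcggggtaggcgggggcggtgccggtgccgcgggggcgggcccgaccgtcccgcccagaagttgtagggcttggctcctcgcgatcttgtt

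ALG12, the mannosyltransferase that adds a late mannose in the lumen, was the only one of the 31 members with a promoter entry to hold the ERSE, which is the element bound by ATF6 together with NF-Y. The match was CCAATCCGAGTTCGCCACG, from base -134 to base -116. Searched on both strands from 250 bases before to 50 after the start, this motif was present in 0.081% of the promoters of 27305 genes, 1 per symbol. The second form, ERSE-II (ATTGGNCCACG), was in 0.055% of promoters and in 0 member promoters, and the UPRE core TGACGTG was in 2.0% of promoters and in that of MGAT1. A CCAAT box was present in 17 of 31 member promoters (54.8%) and in 35.7% of all promoters. GANAB and STT3A, as printed above, each held a pair of CCAAT boxes, whereas none was found in the stretches of RPN2 and MAN2A1. A letter match is a description and shows no binding, and the lower genes did not share 1 of these motifs.

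The counted regions lay where a 3′ library reads. For 34 of the 36 members the most used region overlapped the 3′ UTR of the canonical transcript in GENCODE 44 lifted to GRCh37, and for 30 of the 36 it held at least 95% of the gene's counts. GANAB, for instance, was read at chr11:62392101-62393396 across the end of the coding sequence and the 3′ UTR, and STT3B at chr3:31677538-31679309. MAN2A1 was read mostly at chr5:109205327-109205523, a stretch that starts 1 base past its annotated end, and the upstream region at chr5:109202700-109203076 held 10.9% of its counts in HepG2 controls and 22.2% with HME. In Ls174 these shares were 7.53% and 11.8%, from 39 and 16 counts in that region. MPDU1, ALG1, ALG3, DDOST and MOGS were read in regions that overlap a gene on the opposite strand. How strand was used in counting was not given in the sources used here, so their values may hold reads of the partner gene.

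In Ls174 cells treated with HME, genes of the transferase and of trimming were among those lower. GANAB, STT3B and MAN2A1 fell (adjusted p below 0.05), which is 3 of 34 tested members, while 0.866% of all 11319 tested genes fell. No tested member rose in Ls174, where 0.318% of all genes did. At the study thresholds 12 members were lower, 35.3% of those tested, beside 7.85% of all genes, and 0 members were higher, beside 4.11% of all genes. Among the 34 members, 16 had all 3 HME values below all 3 control values, as did 12.3% of all genes, and OSTC was the 1 member with all HME values above, as were 11.5% of all genes. The median log2 fold change was -0.38 over the tested members and -0.0029 over all tested genes.

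**Figure D1:**
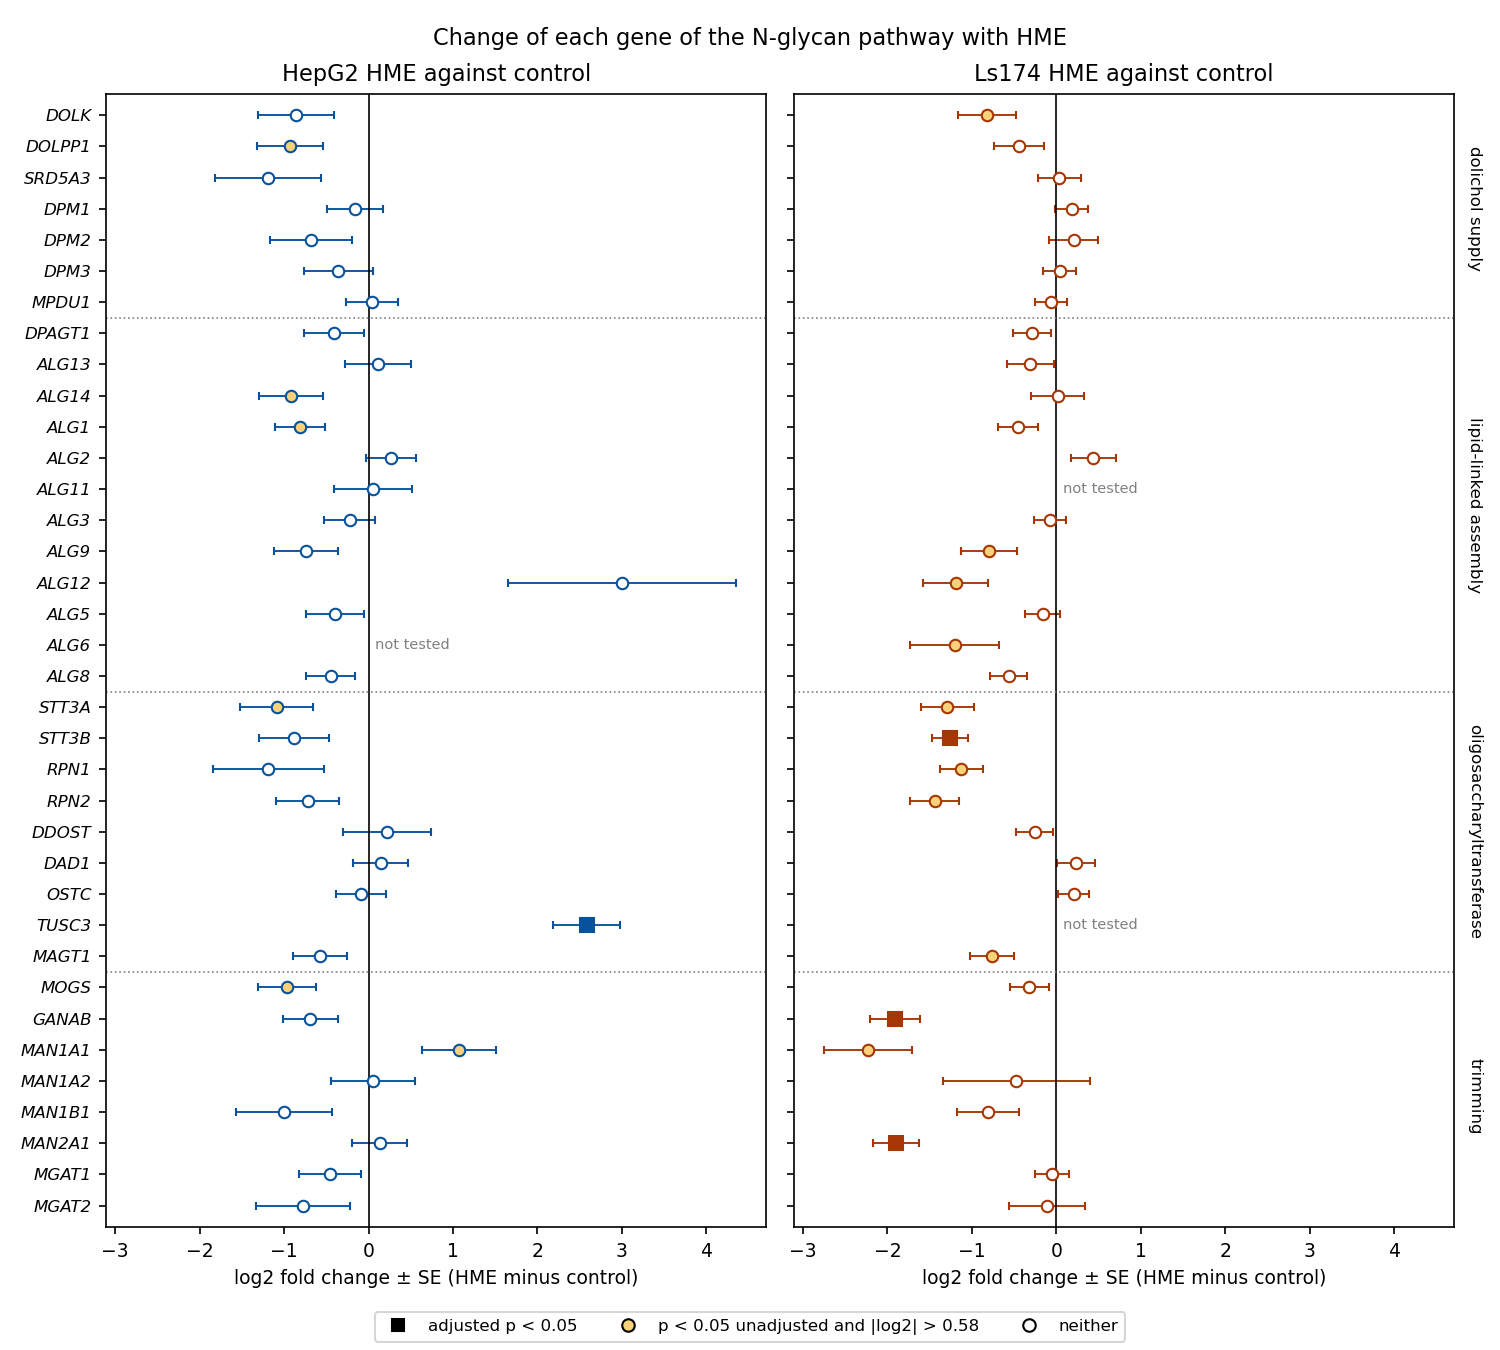
Log2 fold change with HME (horizontal axis, HME minus control, bars are the standard error of the edgeR fit) for each of the 36 genes, ordered by step, in HepG2 (left) and Ls174 (right). Dark squares passed an adjusted p of 0.05, yellow circles met the study thresholds and open circles met neither. In Ls174 GANAB, STT3B and MAN2A1 are dark squares on the left of zero, at -1.91, -1.26 and -1.90, and in HepG2 TUSC3 is the dark square on the right, at 2.58.

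Dolichol supply stayed near its control level in Ls174. DOLK, the kinase that makes dolichol phosphate, had 16.3, 12.4 and 14.4 CPM in controls and 7.88, 10.0 and 6.40 CPM with HME, a log2 fold change of -0.82 ± 0.34 (SE, n = 3 per group, adjusted p = 0.352). It was the 1 of 7 genes of this step to meet the study thresholds in Ls174. The phosphatase DOLPP1, the reductase SRD5A3, the subunits DPM1, DPM2 and DPM3 of dolichol-phosphate-mannose synthase and MPDU1, which helps the cell use that mannose donor, lay between -0.45 and 0.21 on the log2 scale. The summed level of the step was 320 ± 20.6 CPM in controls and 317 ± 3.66 CPM with HME (SD, n = 3).

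In HepG2 the summed level of this step was lower with HME. DOLPP1 had 21.0, 43.4 and 28.6 CPM in controls and 21.7, 13.4 and 12.9 CPM with HME, a difference of -0.93 ± 0.39 (adjusted p = 0.197), with groups that overlap. Without control 2 it was -0.60 and did not meet the study thresholds. The other 6 genes lay between -1.19 for SRD5A3, which was -0.44 without control 2, and 0.04 for MPDU1, and none passed the test. The summed level was 272 ± 37.2 CPM in controls and 226 ± 1.33 CPM with HME, and the highest control value, 311 CPM, came from control 2.

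Of the lipid-linked assembly genes, 3 of 11 tested were lower at the study thresholds in Ls174, and ALG12 had an extreme value in 1 HepG2 library. These enzymes add N-acetylglucosamine (DPAGT1, ALG13 and ALG14), mannose (ALG1, ALG2, ALG11, ALG3, ALG9 and ALG12) and glucose (ALG6 and ALG8, with the donor made by ALG5). In Ls174 ALG9, ALG12 and ALG6 met the study thresholds, at -0.79, -1.19 and -1.21 on the log2 scale (adjusted p = 0.352, 0.236 and 0.368), and the other 8 tested genes ranged from -0.56 for ALG8 to 0.44 for ALG2. Without Ls174 control 1, ALG6 was at -0.70 and ALG9 at -0.49 and neither met the thresholds, whereas ALG12 was lower in all 6 fits that left out a library. ALG12 had 15.2, 11.4 and 10.8 CPM in Ls174 controls and 4.33, 5.00 and 6.76 CPM with HME, so that the groups did not overlap. In HepG2 it had 11.6, 16.5 and 11.6 CPM in controls and 4.05, 306 and 3.93 CPM with HME. The 2 treated HepG2 libraries with low values lay below every control. HME 2, which also had the high sum of mesenchymal markers, held 933 counts of ALG12 against 11 and 7 in the other treated libraries. All of these counts lay in a single region, chr22:50293680-50297714, at the 3′ end of the gene. The part of that library's other features in this value was not tested.

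Without ALG12, the summed level of the assembly genes was 390 ± 32.1 CPM in HepG2 controls and 299 ± 32.7 CPM with HME. ALG14, which anchors the enzyme for the next sugar to the membrane, had 23.9, 13.5 and 16.3 CPM in HepG2 controls and 12.1, 8.52 and 7.87 CPM with HME (-0.92 ± 0.38, adjusted p = 0.191). ALG1, the first mannosyltransferase, had 54.5, 74.6 and 69.6 CPM in controls and 43.0, 36.7 and 33.1 CPM with HME (-0.81 ± 0.30, adjusted p = 0.158). Both genes had groups without overlap and met the study thresholds, but neither passed the adjusted test. In Ls174 the values were 0.02 ± 0.32 for ALG14 and -0.46 ± 0.24 for ALG1. ALG1 shares its region with FAM86A on the other strand, whose own overlapping region held 1100 counts against 1204 of ALG1.

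The oligosaccharyltransferase contains a catalytic subunit, STT3A or STT3B, and shared subunits that include RPN1, RPN2, DDOST and DAD1. Complexes with STT3A carry OSTC and act as the chain enters the endoplasmic reticulum, and complexes with STT3B carry either MAGT1 or TUSC3, oxidoreductases that help reach sites near cysteines. STT3B had 182, 122 and 131 CPM in Ls174 controls and 63.0, 58.8 and 59.4 CPM with HME. Each treated library lay below each control, and STT3B fell by 1.26 ± 0.22 on the log2 scale (adjusted p = 0.0388), a change of -58.2%. STT3A had 188, 89.9 and 90.5 CPM in Ls174 controls and 49.6, 46.2 and 53.7 CPM with HME, again without overlap, at -1.29 ± 0.31 (adjusted p = 0.109). Control 1 gave the highest value of both, and without it STT3A was at -0.85 (adjusted p = 0.00261) and STT3B at -1.06 (adjusted p = 0.000398).

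The non-catalytic subunits divided in Ls174. RPN1 had 108, 63.9 and 79.5 CPM in controls and 45.7, 33.1 and 35.9 CPM with HME (-1.13 ± 0.26, adjusted p = 0.0926). RPN2 had 146, 80.2 and 84.5 CPM in controls and 32.7, 34.2 and 46.6 CPM with HME (-1.44 ± 0.29, adjusted p = 0.0634). MAGT1 had 23.4, 36.1 and 36.4 CPM in controls and 18.1, 19.2 and 19.6 CPM with HME (-0.76 ± 0.26, adjusted p = 0.262). In these 3 genes the groups did not overlap. By contrast the small subunits DAD1 and OSTC had log2 fold changes of 0.23 ± 0.23 and 0.21 ± 0.18, and DDOST had -0.25 ± 0.22. Of the 8 tested subunits, 5 were thus lower at the study thresholds and 3 were not. The summed level of the subunits was 871 ± 111 CPM in controls and 604 ± 52.3 CPM with HME, a difference of -30.7%.

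TUSC3 was the 1 member that rose in HepG2 at the adjusted threshold, 1 of 35 tested, where 2.77% of all 11343 tested genes rose. It had 4.10, 2.45 and 3.99 CPM in controls and 21.0, 27.2 and 17.4 CPM with HME, so that the lowest treated value was well above the highest control. The log2 fold change was 2.58 ± 0.40 (adjusted p = 0.00907), or 5.99 times the control level. The reads were few: 17, 4 and 11 counts in controls and 57, 83 and 31 with HME, of which 28 and 140 lay in the terminal region at chr8:15621712-15624355. In Ls174 the gene had 1 count over the 3 control libraries and 0 over the 3 treated ones, which is under the limit of 3 counts per library, and no fold is given. Without HepG2 HME 2 the log2 fold change was 2.41 and the adjusted p was 0.0512, and in the 5 fits that left out another HepG2 library it stayed a call.

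MAGT1, the alternative to TUSC3 in the complex, had 48.0, 30.6 and 55.4 CPM in HepG2 controls and 30.2, 32.4 and 27.5 CPM with HME. The groups overlapped, at -0.58 ± 0.32 (adjusted p = 0.315). Added together, MAGT1 and TUSC3 had 48.2 ± 13.6 CPM in HepG2 controls and 51.9 ± 7.37 CPM with HME. In Ls174 the same sum was 32.1 ± 7.52 CPM and 19.0 ± 0.759 CPM. The mean sums of the 2 genes were thus close in treated and control HepG2 cells, where the control sums were 52.1, 33.0 and 59.4 CPM, lowest in control 2. TUSC3 gave a larger part of the sum in treated cells than in controls. MAGT1 still gave most of it, at a mean of 30.0 CPM against 21.9 CPM for TUSC3.

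The catalytic subunits in HepG2 depended on control 2. STT3A had 65.3, 198 and 106 CPM in controls and 72.8, 57.0 and 43.3 CPM with HME (-1.09 ± 0.43, adjusted p = 0.185). STT3B had 89.7, 226 and 84.1 CPM in controls and 75.0, 71.7 and 69.1 CPM with HME (-0.88 ± 0.42, adjusted p = 0.247). The groups overlapped for STT3A and did not for STT3B. Without control 2 the values were -0.55 and -0.26. RPN1, with 206 CPM in control 2 and at most 49.6 CPM in the other controls, and RPN2, with 336 CPM in it, were also highest in that library. Their log2 fold changes were -1.19 and -0.72 with control 2 and 0.07 and -0.35 without it.

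**Figure D2:**
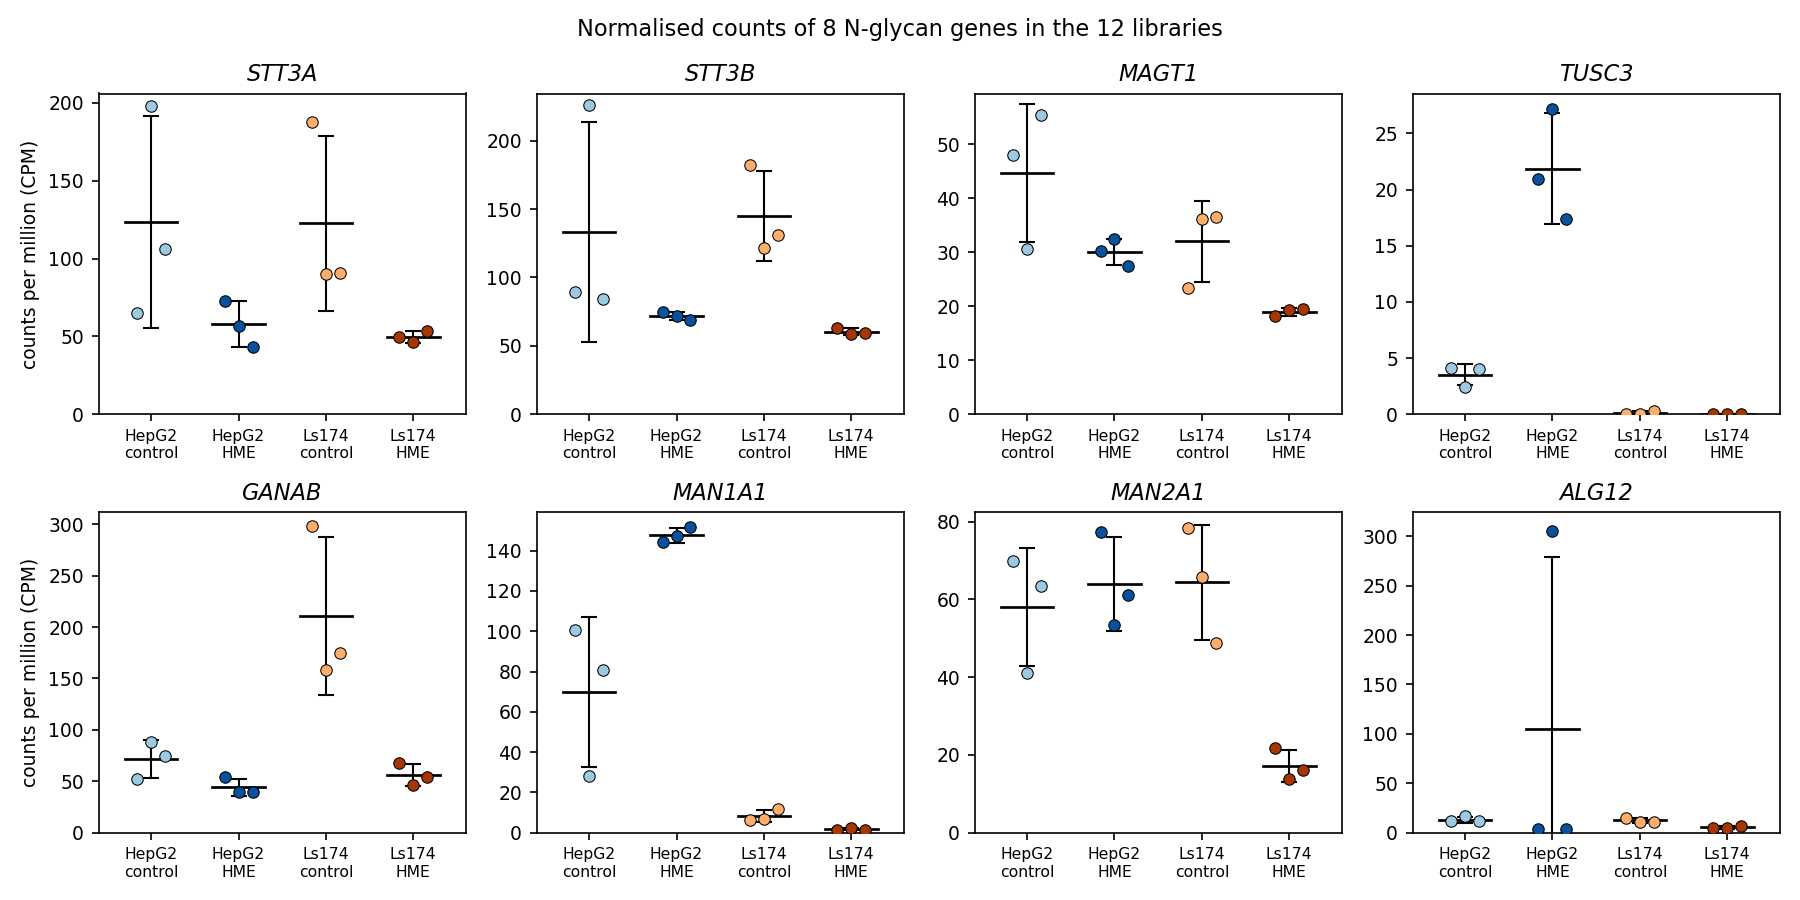
CPM (vertical axis, starting at 0, its own scale in each panel) of 8 genes in the 12 libraries, scaled within each line. Points are libraries in order of replicate number, the line and bar are the mean and SD of 3. TUSC3 lies at 17.4 to 27.2 in treated HepG2 cells against at most 4.10 in their controls, GANAB and MAN2A1 drop in Ls174, and ALG12 has 1 treated HepG2 library at 306, which carries its SD bar below the axis.

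Trimming showed the lowest summed level relative to control of the 4 steps in Ls174, 415 ± 96.0 CPM in controls and 184 ± 15.9 CPM with HME, a difference of -55.6%. In HepG2 the same sum was 385 ± 22.4 and 367 ± 30.7 CPM, a difference of -4.66%. Single genes weighed on both sums. MAN1A1 went from a mean of 69.8 to 148 CPM in HepG2, and GANAB from 211 to 56.0 CPM in Ls174. The median log2 fold change of the 8 trimming genes was -0.57 in HepG2 and -0.64 in Ls174. All 8 trimming genes had negative log2 fold changes in Ls174, 4 of which were beyond -0.80. GANAB, the catalytic subunit of glucosidase II that removes the inner glucoses, had 299, 158 and 175 CPM in Ls174 controls and 67.8, 46.2 and 54.1 CPM with HME. It fell by 1.91 ± 0.29 on the log2 scale (adjusted p = 0.0337), a change of -73.3%, and every treated library lay below every control. In HepG2 GANAB had 51.8, 88.1 and 74.6 CPM in controls and 54.1, 39.3 and 39.3 CPM with HME, groups that overlap (-0.69 ± 0.33, adjusted p = 0.250).

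MAN2A1, the Golgi mannosidase II that cuts the hybrid glycan for complex branching, had 78.3, 65.9 and 48.9 CPM in Ls174 controls and 21.7, 13.8 and 16 CPM with HME. It fell by 1.90 ± 0.28 (adjusted p = 0.0302), a change of -73.2%. In HepG2 its values overlapped, 69.9, 41.0 and 63.4 CPM in controls and 77.2, 53.4 and 61.2 CPM with HME (0.13 ± 0.33, adjusted p = 0.833). The test of the difference between the lines gave 2.00 ± 0.44 on the log2 scale with an adjusted p of 0.0587.

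MAN1A1, a Golgi mannosidase I that removes mannoses before MGAT1 acts, had treated values above control in HepG2 and below control in Ls174. It had 101, 28.1 and 80.8 CPM in HepG2 controls and 144, 147 and 152 CPM with HME (1.07 ± 0.43, adjusted p = 0.188), and without control 2 the value was 0.72 (adjusted p = 0.0895). In Ls174 it had 6.53, 6.69 and 11.9 CPM in controls and 1.58, 2.31 and 1.42 CPM with HME (-2.23 ± 0.52, adjusted p = 0.101), from 12, 20 and 43 counts against 4, 6 and 4. In neither line did the groups overlap, and neither change passed its own test. The difference between the responses passed, at 3.27 ± 0.67 on the log2 scale (HepG2 minus Ls174, adjusted p = 0.0382). This call was lost, with an adjusted p up to 0.157, when any 1 of 9 of the 12 libraries was left out. It was the 1 member of 36 called in this interaction, where 0.644% of all 13040 genes were called, and 4 members had an unadjusted p below 0.05, beside 13.2% of all genes. Those 4 were MAN1A1, MAN2A1, GANAB and ALG12, and for ALG12 the sign turned without HepG2 HME 2 (from 4.19 to -0.54).

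Among the other trimming genes, MOGS, the glucosidase I that removes the first glucose, had 61.2, 39.2 and 59.8 CPM in HepG2 controls and 32.7, 18.7 and 30.9 CPM with HME (-0.97 ± 0.35, adjusted p = 0.146). The groups did not overlap, and without control 2 the value was -1.13 with an adjusted p of 0.0394. Its region overlaps INO80B and WBP1. MAN1B1, the mannosidase of the endoplasmic reticulum, had 35.9, 17.7 and 16.6 CPM in Ls174 controls and 11.8, 12.3 and 15.3 CPM with HME (-0.81 ± 0.37, adjusted p = 0.386), and without control 1 the value was -0.38. MAN1A2 was listed at 0 in Ls174 control 1 and at 17.7 and 12.1 CPM in the other controls, beside 5.51 to 8.85 CPM with HME, a log2 fold change of -0.47 ± 0.87, and without control 1 it met the study thresholds as lower. The N-acetylglucosaminyltransferases MGAT1 and MGAT2, which start the branches of complex glycans, had log2 fold changes of -0.05 ± 0.20 and -0.11 ± 0.45 in Ls174.

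**Figure D3:**
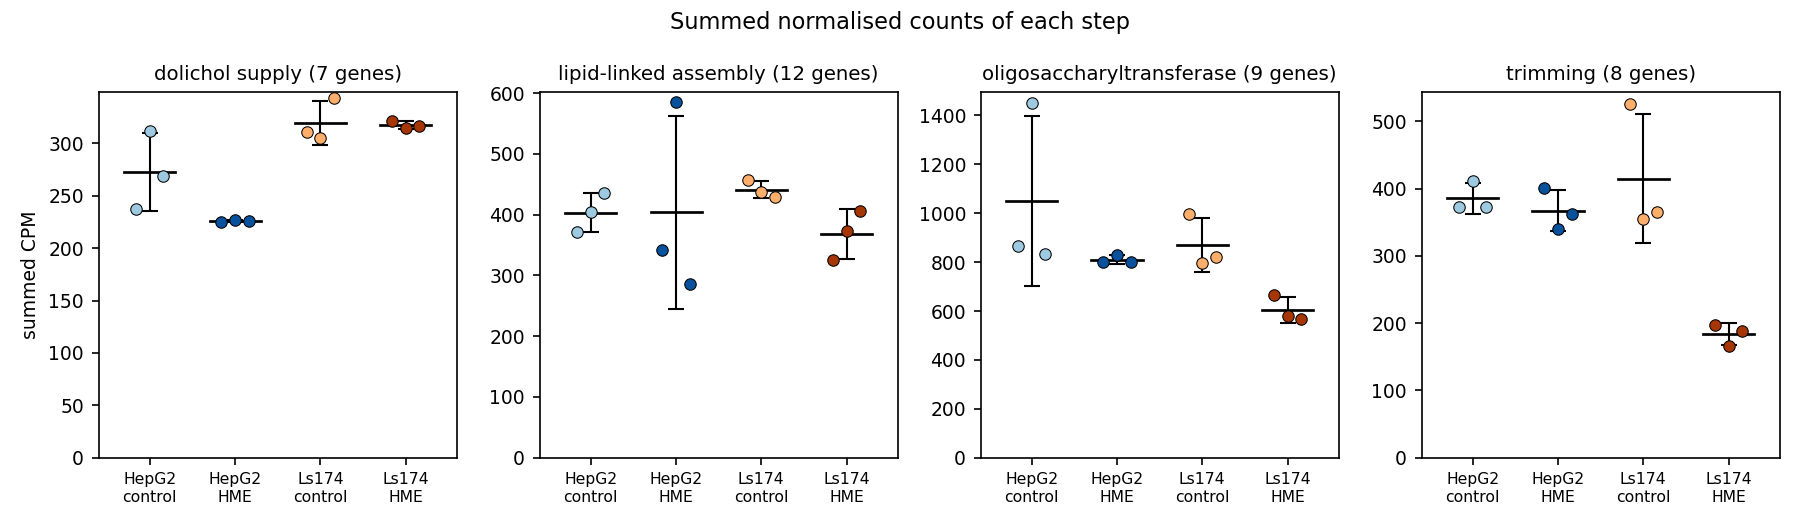
Summed CPM of the genes of each step (vertical axes, starting at 0, scaled within each line) in the 12 libraries. Points are libraries, the line and bar are the mean and SD of 3. The treated Ls174 libraries lie at 167 to 198 for trimming against at least 354 in their controls, dolichol supply overlaps in Ls174, and the assembly value of 585 in treated HepG2 cells comes from the library with high ALG12.

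Over all steps in HepG2, few members other than TUSC3 passed a limit. At the adjusted threshold 0 of 35 members fell, beside 0.538% of all genes. At the study thresholds 2 members were higher, TUSC3 and MAN1A1, beside 11.3% of all genes, and 5 were lower, DOLPP1, ALG14, ALG1, STT3A and MOGS, 14.3% of those tested beside 10.9% of all genes. All 3 treated values lay above all 3 controls in 2 members, TUSC3 and MAN1A1, beside 16.6% of all genes, and below them in 5 (ALG14, ALG1, ALG8, STT3B and MOGS), beside 14.2%. The median log2 fold change was -0.45 over the members and -0.04 over all genes, with 24 of 35 members below zero. Without HepG2 HME 2 only ALG12 was lower at the study thresholds, where 6.81% of all genes were.

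The number of calls in Ls174 depended on single libraries. Without control 1, 9 members passed the adjusted threshold, all of them lower: GANAB, STT3B, MAN2A1, RPN2, STT3A, RPN1, MAN1A1, MAGT1 and ALG8, and 979 of all genes did. Leaving out any other single Ls174 library left 0 members, and 0 to 10 genes in all. The log2 fold change of GANAB stayed between -2.07 and -1.57, that of MAN2A1 between -2.09 and -1.74 and that of STT3B between -1.36 and -1.06 in these 6 fits. At the study thresholds 8 members, ALG12, GANAB, MAN1A1, MAN2A1, RPN1, RPN2, STT3A and STT3B, were lower in all 6 of them.

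In Ls174 the members with longer coding sequences had the lower log2 fold changes. Across the 34 tested members the Spearman correlation of coding length with the log2 fold change was -0.80, a value over genes of the same libraries that carries no p. Over 9801 protein-coding genes it was -0.20. In HepG2 the values were -0.13 over 35 members and -0.03 over 9835 genes. The 12 members lower at the study thresholds had coding lengths from 1005 bases (MAGT1) to 3432 bases (MAN2A1), and of the 10 members in the shortest of 3 equal classes of all genes (under 999 bases) 0 were lower, beside 4.67% of the genes of that class. In the longest class (over 1824 bases) 7 of 11 members were lower, beside 11.8%. The other 4 of that class were ALG13 with 3411 coding bases at -0.31, MOGS with 2511 at -0.32, MAN1B1 with 2097 at -0.81 and MAN1A2 with 1923 at -0.47. Most counts of ALG13 (69.9%) lay at chrX:110931230-110932225, outside the exons of the canonical transcript that gave its coding length. With transcript length in place of coding length the correlation was -0.49, and with the mean level of the members it was 0.25.

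When libraries were left out, the correlation ranged from -0.78 to -0.72 in the 6 fits of Ls174. The libraries themselves differed along it. For the level relative to the control mean, the correlation with coding length over the members was 0.52, -0.27 and -0.55 in Ls174 controls 1, 2 and 3 and -0.66, -0.74 and -0.60 in the treated libraries. Over all genes it was between -0.04 and 0.05 in the controls and between -0.18 and -0.13 in the treated libraries. The control mean is that of these same 3 controls, so their deviations cancel within each gene and opposite signs among them follow largely from this. The 3 treated values share that mean and are not independent of each other. RNA quality was not given in the sources used here, and its part in the ordering by coding length was not tested.

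**Figure D4:**
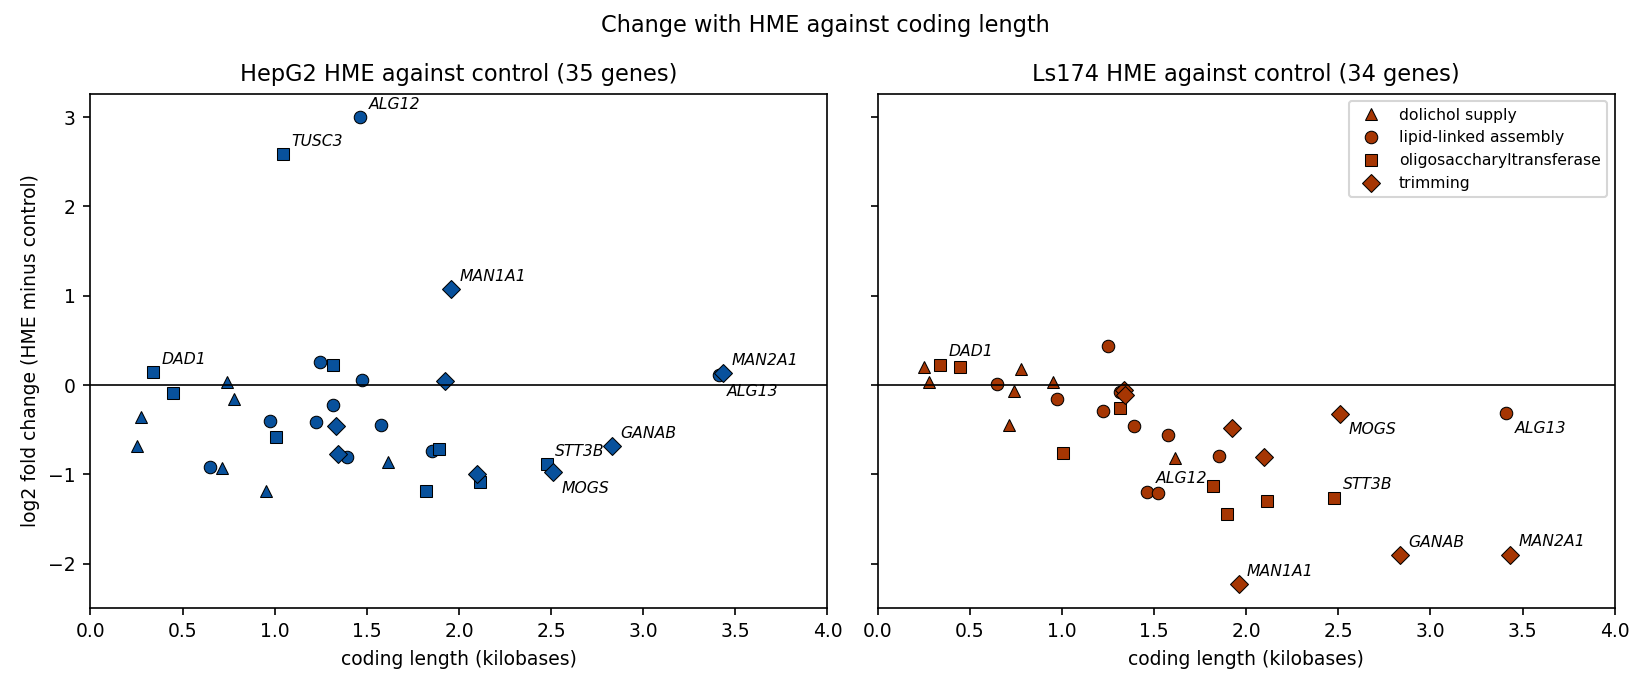
Log2 fold change with HME (vertical axis) against coding length in kilobases (horizontal axis) for the tested members in HepG2 (left, 35 genes) and Ls174 (right, 34 genes), with the step given by the symbol. In Ls174 the short genes lie near zero and MAN2A1, GANAB and STT3B, among the longest, lie below -1, giving a Spearman correlation of -0.80. In HepG2 it is -0.13.

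Between the untreated lines members were called in both directions. Their total moved from 4 to 10 when single libraries were left out, so the shares below are a description only. In the fit of all 12 libraries, a call took an adjusted p below 0.05 and a difference beyond 2-fold. Higher in HepG2 than in Ls174 were 5 of 36 members (13.9%), ALG1, RPN2, TUSC3, MAN1A1 and MAN1B1, beside 18.4% of all genes. Lower were 3 of 36 (8.33%), DPM3, ALG5 and GANAB, beside 14.1%. MAN1A1 had 77.0 ± 43.3 CPM in HepG2 controls and 7.71 ± 2.86 CPM in Ls174 controls, a difference of 3.30 ± 0.44 (adjusted p = 3.93e-05). GANAB had 76.9 ± 16.9 and 193 ± 67.1 CPM (-1.33 ± 0.30, adjusted p = 0.00325). TUSC3 had 17, 4 and 11 counts in HepG2 controls and 0, 0 and 1 in Ls174 controls. MAN1B1 rested on HepG2 control 2, at 116 CPM against 31.1 and 21.0 CPM, and without that library its difference was 0.50 with an adjusted p of 0.287.

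Outside the members, 39 further genes of the pathway were counted from a list that covers dolichol synthesis, sugar nucleotides, small transferase subunits, the glucose checkpoint with glycoprotein disposal, and later branching. In Ls174, 3 of 34 tested genes fell and 0 rose, beside 0.866% and 0.318% of all genes. UGGT1, the folding sensor that puts glucose back on unfolded glycoproteins, had 119, 40.5 and 54.4 CPM in controls and 12.2, 16.9 and 11.7 CPM with HME (-2.37 ± 0.42, adjusted p = 0.0400). Calnexin, CANX, had 367, 442 and 402 CPM in controls and 169, 170 and 196 CPM with HME (-1.18 ± 0.19, adjusted p = 0.0344). Calreticulin, CALR, had 304, 290 and 278 CPM in controls and 127, 132 and 143 CPM with HME (-1.11 ± 0.18, adjusted p = 0.0344). None of these groups overlapped. Without control 1 UGGT1 was at -1.80 and 9 of the 34 genes fell, and without any other single Ls174 library 0 did.

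At the study thresholds 11 of those 34 genes were lower in Ls174, 7 of 12 in the glucose checkpoint and disposal list and 4 of 6 in the branching list, and 1 of 10 in sugar nucleotide supply was higher, beside 7.85% lower and 4.11% higher of all genes. The median log2 fold change was -0.95 in the checkpoint list, -0.76 in the branching list and 0.26 in the sugar nucleotide list. In HepG2, 1 of 35 tested genes fell and 0 rose, beside 0.538% and 2.77% of all genes. ENGASE, the cytosolic enzyme that releases glycans from discarded proteins, had 13.3, 33.7 and 15.6 CPM in HepG2 controls and 3.31, 3.93 and 5.06 CPM with HME, without overlap (-2.32 ± 0.48, adjusted p = 0.0320). The call was lost without control 3 or any 1 of the 3 treated libraries, at an adjusted p of 0.0608 to 0.142. UGGT1 in HepG2 had 82.9, 207 and 87.0 CPM in controls and 63.3, 51.4 and 42.1 CPM with HME (-1.26 ± 0.42, adjusted p = 0.124), and the value was -0.68 without control 2. At the study thresholds 2 of the 35 were lower (5.71%) and 1 was higher (2.86%) in HepG2, beside 10.9% and 11.3% of all genes.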

How the data were processed

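RNA of untreated and HME-treated HepG2 and Ls174 cells was made into 3′ libraries (QuantSeq kit for Ion Torrent) and, per the study's methods and processing notes, aligned to hg19 (GRCh37), with HISAT2, Bowtie2 and Trimmomatic named as tools. The authors deposited raw counts per 3′ region with gene names, not normalized, and versions and strand settings were not given in the sources used here. Counts were summed over all regions of a gene. The name ALG9 belongs to 2 identifiers with nested regions, and the larger was used. Each line was fitted alone in edgeR 4.0.16 (R 4.3.3) after filterByExpr and TMM, with the quasi-likelihood test and Benjamini-Hochberg adjustment over all tested genes. The interaction and the untreated lines were fitted on all 12 libraries. DESeq2 1.42.0, other scalings, no filter, single libraries left out and the replicate number as a block were alternatives. The test was also run on counts simulated from edgeR's own fitted model. In these no library stood apart, so the run cannot show how the test behaves with the outlying controls seen here. Members, further pathway genes and marker lists were chosen with earlier results of these data known, so no set was tested. By rule, values in every library are given for members called in either line or the interaction, for STT3A, STT3B, MAGT1 and TUSC3, and, of the further pathway genes, for those called. DOLK, DOLPP1, ALG1, ALG12, ALG14, RPN1, RPN2, MOGS, MAN1B1 and MAN1A2 lie outside that rule, and their values were chosen for print after they were seen. Replicates are biological triplicates, so p-values measure the spread between cultures. Blood markers summed to 111 to 517 CPM in HepG2 and at most 5.25 CPM in Ls174, with PTPRC and CD3E at 0 in all groups. Endothelial markers summed to at most 4.28 CPM.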

Additional observations from a re-analysis of the deposited data

Results flagged for a closer look

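The response of MAN1A1 differed between the lines by a test of the difference itself. The interaction in edgeR was 3.27 on the log2 scale (HepG2 minus Ls174, adjusted p = 0.0382), and the 3 treated values lay above the 3 controls in HepG2 and below them in Ls174. Leaving out each of the 12 libraries in turn kept the value between 2.87 and 3.59, and the adjusted p lay between 0.00917 and 0.157. It stayed below 0.05 without HepG2 control 1, HepG2 control 2 or Ls174 control 1 and was above it without each of the other 9. It was 0.083 with library size only and 0.130 with the replicate number as a block. Groups of 3 were too small to be examined for single outlying values.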

How the results depend on the processing

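In HepG2, 1 member was called and 5 were lower and 2 higher at the study thresholds. The lower count became 9 and the higher count 1 with library size only, which moved the member median from -0.45 to -0.59 and that of all genes from -0.04 to -0.20. With no filter beyond 1 count 2 members were called and 9 were lower, and 1 fit of all 12 libraries gave 11 lower. In Ls174 the 3 calls became 7 with DESeq2 and 6 with no filter, whereas 1 fit of all 12 libraries kept GANAB and MAN2A1 but not STT3B. The lower members at the study thresholds ranged from 9 to 14 over the alternatives in Ls174, against 12. The interaction gave 2 calls with DESeq2, 2 with median-ratio factors, 3 with no filter and 0 with library size only, against 1. Leaving out single libraries gave 0 to 2 calls, 1 to 7 lower and 1 to 2 higher members and medians from -0.52 to -0.29 in HepG2. In Ls174 it gave 0 to 9 calls, 8 to 12 lower and 0 higher members and medians from -0.49 to -0.31. It gave 0 to 1 interaction calls, 3 to 9 members at an unadjusted p below 0.05, and 4 to 10 members that differed between untreated lines, against 8. The cause of these shifts was not tested beyond the change in genes or libraries that each setting makes. The sign turned for MAN2A1 in HepG2, to -0.0389 with library size only, and it ranged from -0.0461 (without control 2) to 0.291 over left-out libraries, with -0.0026 without HME 1. In the interaction it turned for STT3A (from -0.20 without Ls174 control 1 to 0.648, with -0.14 without HepG2 control 1 and -0.04 without HepG2 HME 1), for MAGT1 (from -0.0904 without HepG2 control 2 to 0.357) and for ALG12 (from -0.54 without HepG2 HME 2 to 4.75). None of these was a call in the fit as reported, and ALG12 was one in the interaction with no filter (adjusted p = 1.21e-09).

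The replicate numbers gave no sign of pairing, though a check on deviations within groups of 3 cannot exclude it. The correlation of deviations from the group mean between samples of the same number was -0.17, 0.09 and -0.12 in HepG2 and -0.03, -0.01 and -0.05 in Ls174, and not every sample correlated best with its own number. With the replicate block the Ls174 calls went from 3 to 0, as did those of all genes from 134 to 0, the interaction calls from 1 to 0 and the lower members in HepG2 from 5 to 1. TUSC3 stayed the 1 call in HepG2. Counting ALG9 over both identifiers changed none of the member counts in either line, and this setting, the other length measures and the left-out libraries for further pathway genes were chosen after the data were seen. Low counts limit TUSC3, ALG6, ALG11 and MAN1A1 in Ls174, and intervals were not given for single libraries.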
